A study of Saccharomyces cerevisiae with 28 samples.

Results

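Autophagy is the route by which a yeast cell encloses cytoplasm in a double membrane, the autophagosome, and delivers it to the vacuole for breakdown. The 35 genes described here are those from ATG1 to ATG42 that Saccharomyces cerevisiae has under an ATG name in the list used, taken by systematic name from a table of 7125 genes and arranged by the step at which their proteins act. VPS30 (also ATG6) and SNX4 (also ATG24) were counted among the partner genes. Their transcripts were measured by RNA sequencing in 28 libraries of 8 strains, of which 5 were mutants (sam1, ser33, shm2, pyk1 and acs2-ts) and 3 were wild types. The acs2-ts and pyk1 strains had a wild type of their own, and sam1, ser33 and shm2 shared BY4741, a common laboratory strain. SESAME, after which the series is named, is a complex of metabolic enzymes that acts on chromatin.

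All cells were grown in YPD, a rich glucose medium, to an OD600 of 0.7 to 1.0, and total RNA was depleted of ribosomal RNA before stranded libraries were made. Every strain had 2 biological replicates. In 6 strains each replicate had 2 libraries from the same RNA, and pyk1 and its wild type had 1. Growth temperature, which decides whether a temperature-sensitive product works, the alleles and the background of the wild types of acs2-ts and pyk1 were not given in the sources used here, nor was it said whether replicates came from separate cultures, so p-values measure the spread between these replicates, which may be technical.

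Autophagy begins when the Atg1 kinase, with Atg13 and the Atg17, Atg29 and Atg31 scaffold, becomes active after starvation or when the nutrient kinase TORC1 is off. Vesicles with Atg9 supply the first membrane, a lipid kinase complex with Atg14 marks it, and ubiquitin-like conjugation attaches Atg8 to it. Receptors such as Atg19 bind chosen cargo, and Atg11 links them to the machinery. In rich medium the cytoplasm-to-vacuole route, which carries aminopeptidase I (Ape1), is the part of the pathway known to run.

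The promoters of ATG8 and ATG29 are printed in full as examples, because these genes fell in sam1 and hold at least 3 of the 4 words searched; they are not the full set of members with both properties. The words were GGCGGC, the core of the site of the repressor Ume6, TGACTC, bound by Gcn4, the activator of the amino acid starvation response, AGGGG, bound by the stress factors Msn2 and Msn4, and GATAAG, bound by the GATA factors of nitrogen regulation. Each window ran from 250 bases before the annotated start to 50 after it in the RefSeq annotation of R64, and words found on either strand are in capitals.
ATG8, chrII:80682-80981, reverse strand: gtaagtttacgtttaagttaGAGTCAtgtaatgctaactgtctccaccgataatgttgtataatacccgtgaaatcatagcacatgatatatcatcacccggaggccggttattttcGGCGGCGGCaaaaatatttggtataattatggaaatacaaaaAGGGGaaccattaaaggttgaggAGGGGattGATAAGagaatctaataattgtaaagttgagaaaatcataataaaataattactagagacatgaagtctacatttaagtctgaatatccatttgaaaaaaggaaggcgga
ATG29, chrXVI:237088-237387, forward strand: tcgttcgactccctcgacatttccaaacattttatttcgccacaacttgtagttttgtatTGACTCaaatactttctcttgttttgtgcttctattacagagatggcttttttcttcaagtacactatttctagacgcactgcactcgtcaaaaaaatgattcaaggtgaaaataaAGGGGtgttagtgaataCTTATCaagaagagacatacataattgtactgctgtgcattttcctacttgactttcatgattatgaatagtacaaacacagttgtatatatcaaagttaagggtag

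The ATG8 window held all 4 words. In it GGCGGC stood as overlapping copies at 133 and 130 bases before the start, and no other words overlapped. The ATG29 window held TGACTC at 190, AGGGG at 74 and GATAAG, on the reverse strand, at 57 bases before the start. Over the 35 members, GGCGGC was in 3 windows, or 8.57%, against 5.13% of 6001 windows of the same length from nuclear protein-coding genes. TGACTC was in 7 windows, or 20%, against 7.98%, AGGGG was in 8, or 22.9%, against 21.6%, and GATAAG was in 10, or 28.6%, against 14.7%. No word was found in 19 member windows. A match is a run of letters and not a binding site.

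The Atg1 kinase complex has 5 members: ATG1 (YGL180W), ATG13 (YPR185W), ATG17 (YLR423C), ATG29 (YPL166W) and ATG31 (YDR022C). Atg9 and membrane supply has 6: ATG9 (YDL149W), ATG2 (YNL242W), ATG18 (YFR021W), ATG23 (YLR431C), ATG27 (YJL178C) and ATG41 (YPL250C). The lipid kinase complex has ATG14 (YBR128C) and ATG38 (YLR211C). Conjugation has 9: ATG8 (YBL078C), ATG4 (YNL223W), ATG7 (YHR171W), ATG3 (YNR007C), ATG12 (YBR217W), ATG10 (YLL042C), ATG5 (YPL149W), ATG16 (YMR159C) and ATG21 (YPL100W). Selective autophagy has 10: ATG11 (YPR049C), ATG19 (YOL082W), ATG34 (YOL083W), ATG20 (YDL113C), ATG32 (YIL146C), ATG33 (YLR356W), ATG36 (YJL185C), ATG39 (YLR312C), ATG40 (YOR152C) and ATG26 (YLR189C). Breakdown and export in the vacuole has ATG15 (YCR068W), ATG22 (YCL038C) and ATG42 (YBR139W).

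In R64 the genes on which the results turn lie at chrII:80378-80731 (ATG8, reverse strand), chrXV:168727-169974 (ATG19, forward), chrXVI:237338-237979 (ATG29, forward), chrXII:840321-840914 (ATG33, forward), chrXII:971917-973170 (ATG17, reverse), chrXIV:639182-640114 (ATG3, reverse) and chrXVI:74309-74719 (ATG41, reverse), each as 1 exon. The members lie on 13 chromosomes. Only ATG38, a subunit of the lipid kinase complex, has an intron, and only ATG29 overlaps another annotated gene, YPL165C (SET6). Whether reads were counted by strand was not given in the sources used here, so reads of that overlap cannot be told apart. No member had a near-identical copy elsewhere in the genome.

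Depth and labels were checked first. Depth, recovered from the step of low values, ranged between 4310000 and 36510000 reads (median library, 14800000). The least read member was ATG10, with 3 to 65 reads and a median of 22.5 reads per library. SAM1 averaged 0.249 RPKM in sam1 and 60.7 RPKM in BY4741. SER33 averaged 0.298 RPKM in ser33 and 31.9 RPKM in BY4741. SHM2 averaged 0.18 RPKM in shm2 and 219.5 RPKM in BY4741. ACS2 averaged 530.6 RPKM in acs2-ts and 232.5 RPKM in its wild type. CDC19, the pyruvate kinase gene also called PYK1, averaged 4021 RPKM in pyk1 and 3618 RPKM in its wild type. In acs2-ts the whole table was shifted, with a median log2 change of -1.28 over all 7125 genes.

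Levels are in RPKM, reads scaled to gene length and to the reads of the library, which can be compared between genes. A value of a replicate is the mean of its libraries on the log2(RPKM + 1) scale, turned back to RPKM. Log2 fold changes are on that scale and understate changes of low genes. Members passed the test at an adjusted p under 0.05 by limma, over all 7125 genes.

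The most abundant members over the 8 strains were ATG42, a vacuolar serine carboxypeptidase, at 140 RPKM, the receptor gene ATG19 at 83.5 RPKM, ATG27, which helps Atg9 to traffic, at 77.2 RPKM, ATG33, a mitophagy factor of the mitochondrial outer membrane, at 76.5 RPKM, and ATG8 at 63.5 RPKM. ATG10, the conjugating enzyme of Atg12, was lowest at 3.49 RPKM. The median member stood at 7.09 RPKM in acs2-ts, against 16.9 RPKM in its wild type. It stood at 20.8 RPKM in sam1, 27.7 RPKM in ser33 and 26.9 RPKM in shm2, against 31.2 RPKM in BY4741, and at 29.5 RPKM in pyk1, against 27.6 RPKM in its wild type. On the deposited scale, on which most genes of acs2-ts are low, the strain mean was highest in ser33 for 17 members and lowest in acs2-ts for 32. After median-of-ratios scaling of the libraries, an order added after seeing the data, it was highest in ser33 for 19 members and lowest in acs2-ts for 11. As deposited, the largest folds between the highest and lowest strain means were those of ATG33, at 12, ATG41, at 11.3, and the vacuolar lipase gene ATG15, at 10, and after that scaling the same 3 genes stood at 4.94, 41.6 and 3.24.

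**Figure D1:**
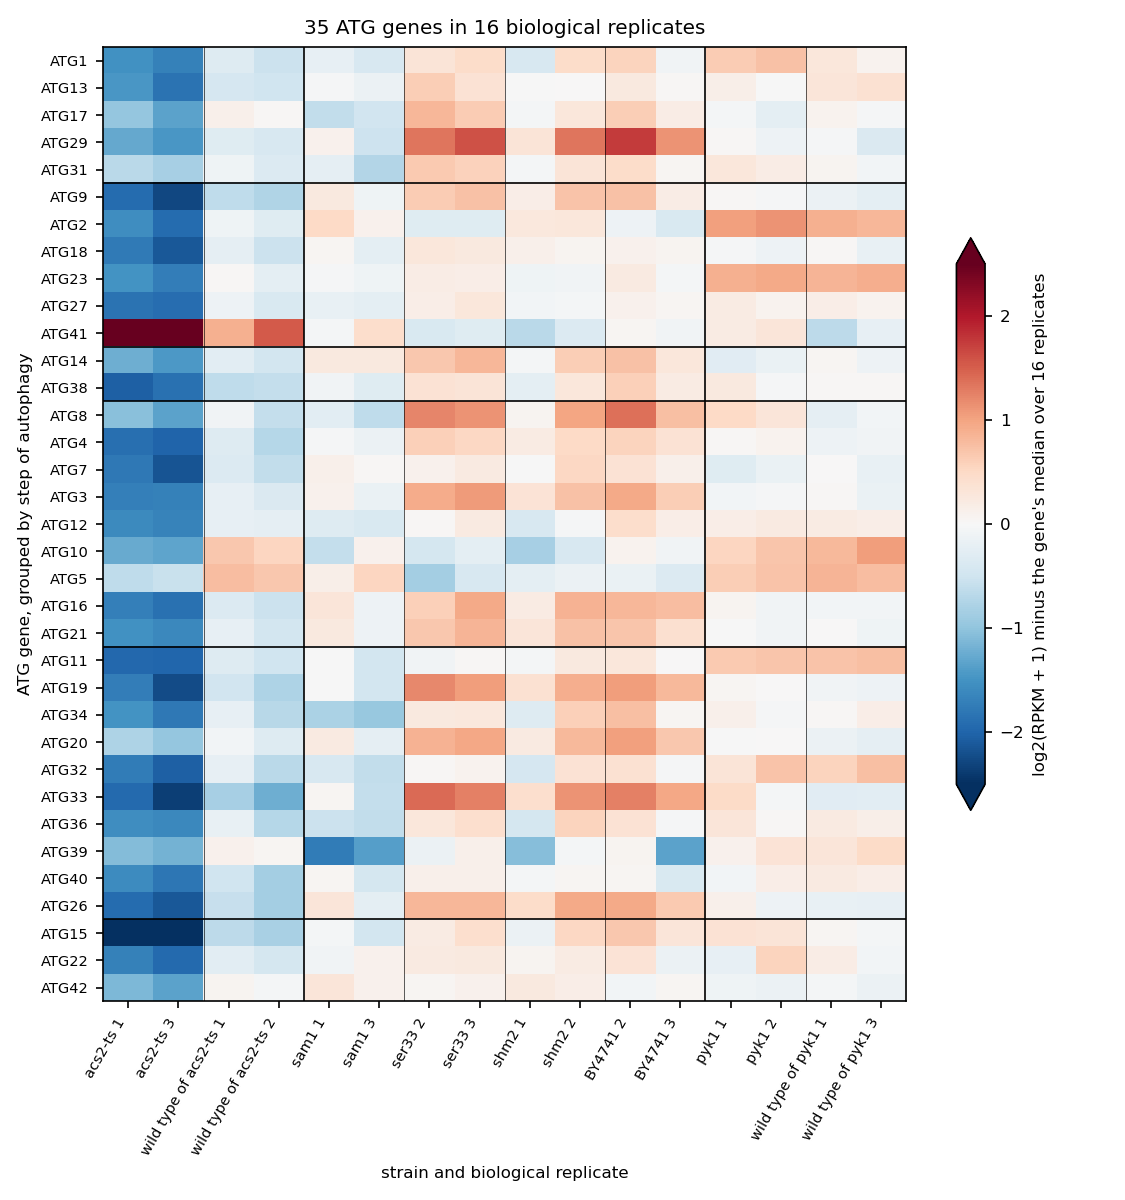
Heat map of the 35 ATG genes (rows, grouped by step with black lines) in 16 biological replicates (columns), as log2(RPKM + 1) minus the gene's median over the 16 replicates, with red above and blue below that median. The acs2-ts columns are blue for all rows but ATG41, and the sam1 columns and shm2 replicate 1 are paler or bluer than ser33, shm2 replicate 2 and BY4741 in most rows.

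Genes of each step were followed through all strains. ATG1, the kinase, averaged 7.86 ± 0.73 RPKM in acs2-ts and 19.0 ± 2.17 RPKM in its wild type (SD, n = 2 each). It averaged 20.8 ± 2.19 RPKM in sam1, 34.1 ± 2.38 RPKM in ser33 and 27.5 ± 11.5 RPKM in shm2, against 31.3 ± 10.3 RPKM in BY4741. ATG1 averaged 42.0 ± 1.96 RPKM in pyk1 and 29.7 ± 2.85 RPKM in its wild type. The spread of ATG1 was widest in shm2 and BY4741.

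ATG8 averaged 21.5 ± 3.17 RPKM in acs2-ts and 39.8 ± 9.82 RPKM in its wild type. It averaged 36.5 ± 6.74 RPKM in sam1, 114.3 ± 5.91 RPKM in ser33 and 75.9 ± 33.3 RPKM in shm2, against 108.0 ± 33.4 RPKM in BY4741. ATG8 averaged 66.6 ± 6.84 RPKM in pyk1 and 45.2 ± 3.53 RPKM in its wild type. The order of ATG8 ran from ser33 through BY4741, shm2, pyk1, the wild type of pyk1, the wild type of acs2-ts and sam1 to acs2-ts, and neighbours in that order overlapped in their replicates except for pyk1 and its wild type and for sam1 and acs2-ts.

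ATG9, the membrane protein of the vesicles, averaged 5.35 ± 1.06 RPKM in acs2-ts and 15.6 ± 0.99 RPKM in its wild type. It averaged 27.4 ± 4.83 RPKM in sam1, 42.4 ± 2.3 RPKM in ser33 and 36.4 ± 9.93 RPKM in shm2, against 36.9 ± 9.89 RPKM in BY4741, and 26.0 ± 0.549 RPKM in pyk1, against 22.6 ± 1.19 RPKM in its wild type. ATG14, the targeting subunit of the lipid kinase complex, averaged 3.39 ± 0.481 RPKM in acs2-ts and 7.55 ± 0.744 RPKM in its wild type. It averaged 11.9 ± 0.00184 RPKM in sam1, 17.5 ± 1.39 RPKM in ser33 and 12.7 ± 4.3 RPKM in shm2, against 14.8 ± 3.45 RPKM in BY4741, and 8.4 ± 0.591 RPKM in pyk1, against 9.66 ± 0.844 RPKM in its wild type.

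ATG11, the scaffold of selective autophagy, averaged 4.22 ± 0.0377 RPKM in acs2-ts and 14.5 ± 1.36 RPKM in its wild type. It averaged 16.7 ± 3.77 RPKM in sam1, 19.1 ± 1.13 RPKM in ser33 and 21.1 ± 3.24 RPKM in shm2, against 21.8 ± 2.97 RPKM in BY4741, and 31.7 ± 0.683 RPKM in pyk1, against 33.0 ± 0.594 RPKM in its wild type. ATG19 averaged 17.5 ± 4.41 RPKM in acs2-ts and 46.0 ± 6.97 RPKM in its wild type. It averaged 60.9 ± 13.4 RPKM in sam1, 155.6 ± 11.9 RPKM in ser33 and 113.4 ± 29.7 RPKM in shm2, against 136.6 ± 16.2 RPKM in BY4741, and 72.2 ± 1.07 RPKM in pyk1, against 65.8 ± 1.05 RPKM in its wild type.

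In sam1, which lacks most of the transcript of one of the S-adenosylmethionine synthetase genes, 6 of 35 members fell against BY4741 and none rose. The comparison used a model of 4 strains. Among all genes 8.29% were called lower and 8% higher. The median member changed by -0.56 on the log2 scale, beside -0.03 for all genes. At an unadjusted p under 0.05 there were 19 members and 2968 genes of 7125. The 2 sam1 replicates lay below both BY4741 replicates for 25 members, where 35% of all genes did so, and above both for 3 members, where 31.0% of all genes did so.

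In the Atg1 kinase complex 2 of 5 genes fell, and all 5 were below BY4741 without overlap. ATG29 had 21.5 and 13.5 RPKM in sam1, against 68.9 and 44.7 RPKM in BY4741, a log2 change of -1.65 ± 0.407 (SE, adjusted p = 0.0474). ATG17, the scaffold that gathers the complex at starvation, had 7.47 and 8.26 RPKM in sam1, against 18.8 and 13.7 RPKM in BY4741, a log2 change of -0.94 ± 0.199 (adjusted p = 0.0424). Both genes separated the strains without overlap. ATG31, whose product binds Atg17 with Atg29, changed by -0.73 (adjusted p = 0.0756), and ATG13 by -0.22 (adjusted p = 0.283).

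Among the conjugation genes 2 of 9 fell. ATG8 had 41.3 and 31.7 RPKM in sam1, against 131.6 and 84.3 RPKM in BY4741, a log2 change of -1.52 ± 0.352 (adjusted p = 0.0457). ATG3, the enzyme that conjugates Atg8 to lipid, had 21.5 and 17.8 RPKM in sam1, against 39.6 and 31.3 RPKM in BY4741, a log2 change of -0.81 ± 0.191 (adjusted p = 0.046). ATG5, the protein to which Atg12 is joined, went the other way without passing, with 22.1 and 29.3 RPKM in sam1, against 17.6 and 15.4 RPKM in BY4741 (log2 change 0.60, adjusted p = 0.0872). ATG7, which activates both Atg8 and Atg12, and ATG10 overlapped between the strains.

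Among the genes of selective autophagy 2 of 10 fell, and 9 lay below BY4741 without overlap. ATG19 had 70.4 and 51.4 RPKM in sam1, against 148.1 and 125.1 RPKM in BY4741, a log2 change of -1.17 ± 0.236 (adjusted p = 0.0409). ATG33 had 63.2 and 39.9 RPKM in sam1, against 146.7 and 119.6 RPKM in BY4741, a log2 change of -1.38 ± 0.306 (adjusted p = 0.0438). ATG34, a receptor of alpha-mannosidase, changed by -1.27 and did not pass (adjusted p = 0.0562). ATG40, a receptor for endoplasmic reticulum, overlapped, with a log2 change of -0.02.

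No gene of the other steps passed. Of the 6 genes of Atg9 and membrane supply, ATG2, the lipid transfer protein, had 27.2 and 20.6 RPKM in sam1, against 17.5 and 14.4 RPKM in BY4741 (log2 change 0.55, adjusted p = 0.0649). Both lipid kinase genes, ATG14 and ATG38, were below BY4741 without overlap. ATG15 changed by -0.74 (adjusted p = 0.0975), and ATG42 by 0.22 (adjusted p = 0.197).

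**Figure D2:**
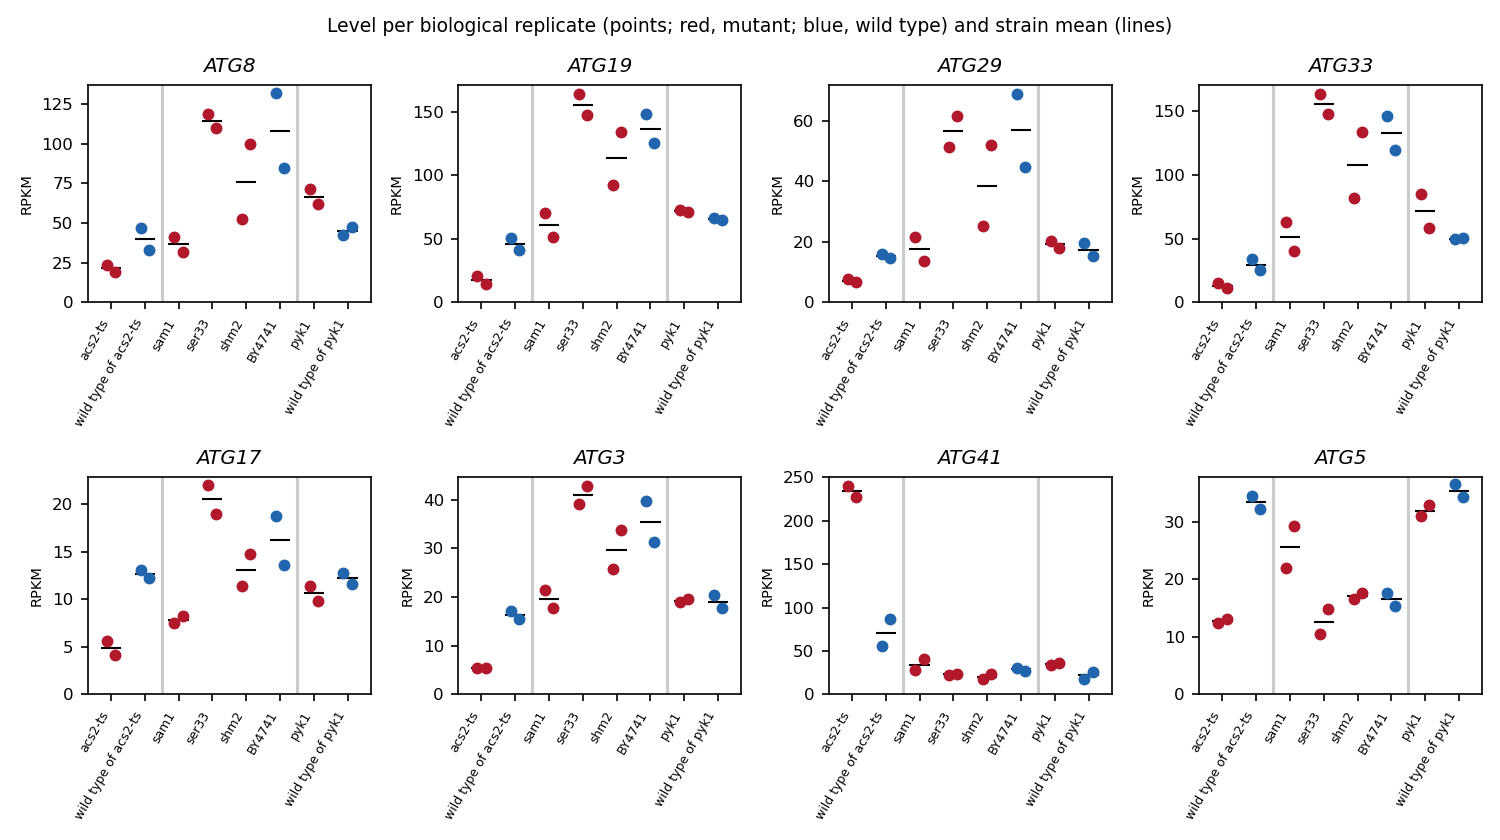
RPKM (linear axis from 0) of the 6 members called lower in sam1 and of ATG41 and ATG5 in 8 strains, with a point for each biological replicate (red, mutant; blue, wild type) and a line for the strain mean. ATG8 in shm2 spans 52.4 and 99.4 RPKM, while both sam1 points, 41.3 and 31.7 RPKM, lie below both BY4741 points.

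The 6 calls were close to the threshold and turned on single replicates, as did the calls of the whole table. No member passed without BY4741 replicate 2, without BY4741 replicate 3 or without sam1 replicate 3, where 0 of 7125 genes passed, nor without either ser33 replicate, where 1 gene was called higher and 3 lower. Without sam1 replicate 1 the median member changed by -0.68, beside -0.02 for all genes. Leaving out either shm2 replicate changes only the estimate of the spread, and the median member was -0.56 by design. With sam1 and BY4741 alone in the model no member and 0 of all genes passed, and relative to ACT1 no member passed, with 0.014% of all genes called in each direction. The first of these 2 settings compares the same strain means as the main model, so its median member of -0.56 could not differ. ACT1 had 976.2 and 1231 RPKM in the libraries of BY4741 replicate 2, and 1515 and 1912 RPKM in those of replicate 3. Values relative to ACT1 carry that spread. Relative to ACT1 the median member changed by -0.51, and with the replicate block by -0.44. Without BY4741 replicate 2 it changed by -0.35, and without BY4741 replicate 3 by -0.75. With all 8 strains in 1 model 17 members were lower and 2 higher, beside 1414 genes lower and 1431 higher.

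Of 44 other genes of the pathway, 3 rose and 5 fell in sam1, or 6.82% and 11.4%, beside 8% and 8.29% of all genes, so the counts are no result about these lists. Among 6 cargo and vacuolar protease genes, APE1, the aminopeptidase carried by the receptor Atg19, fell (log2 change -1.20, adjusted p = 0.0478), as did LAP3, another Cvt cargo (-0.78, adjusted p = 0.0484). The median of these 6 was -0.90. Among 13 partners, VTI1 (-0.74, adjusted p = 0.0409) and MON1 (-0.66, adjusted p = 0.0457), which act in fusion with the vacuole, fell. Among 13 nutrient kinases and their subunits, TPK3 of protein kinase A (0.53, adjusted p = 0.0409) and TOR2 (0.46, adjusted p = 0.0495) rose. Among 12 regulators of transcription, MSN2 rose (0.59, adjusted p = 0.0385) and GAT1, a GATA factor, fell (-0.59, adjusted p = 0.0498).

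In ser33, which lacks most of the transcript of a serine biosynthesis gene, no member passed the test, beside 0.0140% of all genes in either direction. None had an unadjusted p under 0.05, where 458 of all genes did, and the median member changed by 0.09, beside -0.02 for all genes. The ser33 replicates lay above both BY4741 replicates for 7 members, where 18.8% of all genes did so, and below both for 3, where 24.4% did so. The 5 largest changes without overlap, none of which passed, were ATG5 at -0.37, ATG31 at 0.36, ATG13 at 0.35, ATG10 at -0.34 and ATG17 at 0.33. ATG17 had 22 and 19 RPKM in ser33, against 18.8 and 13.7 RPKM in BY4741. ATG8, with 118.5 and 110.1 RPKM in ser33, against 131.6 and 84.3 RPKM in BY4741, lay within the range of BY4741. None of the 44 other pathway genes passed.

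In shm2, which lacks most of the transcript of the cytosolic serine hydroxymethyltransferase, no member passed, beside 0.0140% of all genes in either direction. An unadjusted p under 0.05 was reached by 2 members and 485 genes. The median member changed by -0.18, beside -0.02 for all genes. The shm2 replicates lay above both BY4741 replicates for 2 members, where 14.6% of all genes did so, and below both for 6, where 19.8% did so. The 5 largest changes without overlap, none of which passed, were ATG10 at -0.62, ATG12 at -0.53, ATG2 at 0.52, ATG41 at -0.48 and ATG42 at 0.22. ATG12, a ubiquitin-like protein, had 13.2 and 17.3 RPKM in shm2, against 24.7 and 20 RPKM in BY4741, and ATG2 had 22.9 and 23.4 RPKM in shm2, against 17.5 and 14.4 RPKM in BY4741. None of the 44 other pathway genes passed. All 3 comparisons of sam1, ser33 and shm2 share the BY4741 replicates.

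The replicates of one strain differed in many members at once. In shm2, 33 of 35 members were lower in replicate 1 than in replicate 2, with a median difference of -0.43 on the log2 scale, beside -0.01 for all genes. ATG29 differed by -1.02, with 25.2 RPKM in replicate 1 and 52.0 RPKM in replicate 2. ATG39, the receptor for the nuclear envelope, differed by -1.01. Only ATG18 and ATG42 were higher in replicate 1, each by 0.07. The same median of -0.43 was found in the first libraries and in the second libraries of these replicates, with 31 members lower in each.

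In BY4741, 34 of 35 members were higher in replicate 2 than in replicate 3, with a median difference of 0.29, beside 0.02 for all genes. ATG39 showed the widest gap of any member there, at 1.40, and ATG8 differed by 0.64. In sam1, 28 members were higher in replicate 1, with a median of 0.20 beside -0.01 for all genes, and in ser33, 13 members were higher in replicate 2, with a median of -0.09. In the wild type of acs2-ts, 33 members were higher in replicate 1, where all genes had a median difference of 0.17. Without shm2 replicate 2 the median member of shm2 changed by -0.44 against BY4741, and without shm2 replicate 1 by 0.07.

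**Figure D3:**
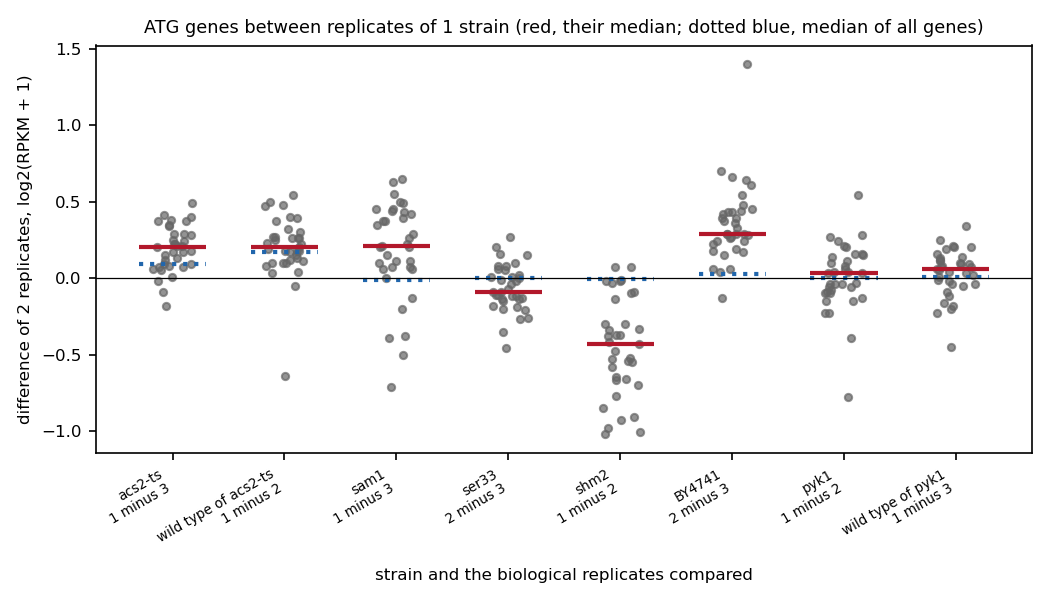
Difference on the log2(RPKM + 1) scale between the 2 biological replicates of each strain, with a grey point for each of 35 ATG genes, a red line for their median and a dotted blue line for the median of all genes. The red line is farthest from the blue one in shm2, at -0.43, and BY4741, at 0.29.

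In pyk1 no member passed against its wild type, beside 0% of all genes in either direction, and the model had 1 library per replicate. An unadjusted p under 0.05 was reached by 4 members and 1018 genes. The median member changed by 0.02, beside -0.01 for all genes. The pyk1 replicates lay above both wild-type replicates for 12 members, where 22.5% of all genes did so, and below both for 7, where 24.1% did so. The 5 largest changes without overlap, none of which passed, all pointed up. ATG41, whose product binds Atg9, had 34.2 and 36.8 RPKM in pyk1, against 18.3 and 25.5 RPKM in its wild type (log2 change 0.69, adjusted p = 0.319). ATG8 had 71.4 and 61.7 RPKM in pyk1, against 42.7 and 47.7 RPKM in its wild type (0.55, adjusted p = 0.288). ATG1 had 40.6 and 43.4 RPKM in pyk1, against 31.7 and 27.7 RPKM in its wild type (0.49, adjusted p = 0.288). ATG33 changed by 0.49 and ATG15 by 0.35. None of the 44 other pathway genes passed.

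In acs2-ts, which carries a temperature-sensitive form of the acetyl-CoA synthetase, 34 of 35 members fell and ATG41 rose on the deposited scale, though 18 of the 34 had a positive change after median-of-ratios scaling. Among all genes 78.1% were called lower and 5.70% higher, so lower calls were the rule in the whole table. The median member changed by -1.32, beside -1.28 for all genes. The acs2-ts replicates did not overlap with those of the wild type for any member. The share of all genes without overlap was not counted here, so this is no result about the members.

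ATG41 had 239.5 and 227.8 RPKM in acs2-ts, against 55.6 and 87.0 RPKM in its wild type, a log2 change of 1.73 ± 0.214 (SE, adjusted p = 0.000518). This was the highest level of any member in acs2-ts, and in the other mutants ATG41 stood at 20.6 to 35.5 RPKM on average. Each acs2-ts replicate was above both wild-type replicates.

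The 3 genes of breakdown and export fell as deposited, where 78.1% of all genes were called lower. With median-of-ratios scaling 1 was called higher and 1 lower. ATG15 had 9.05 and 8.16 RPKM in acs2-ts, against 38.2 and 33.9 RPKM in its wild type, a log2 change of -1.94 ± 0.137 (adjusted p = 0.000129). ATG22, which exports amino acids from the vacuole, changed by -1.46 (adjusted p = 0.00029), and ATG42 by -1.24 (adjusted p = 0.000225). ATG15 thus had the largest fall of the 35 on the log2(RPKM + 1) scale, which understates that of ATG10. ATG10, with 3 to 6 reads per library in acs2-ts, averaged 0.69 RPKM there and 5.29 RPKM in its wild type.

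All 9 conjugation genes fell as deposited, where 78.1% of all genes were called lower. Of the 9, 3 had a positive change after median-of-ratios scaling, with 1 called higher and 1 lower. ATG10 had 0.72 and 0.66 RPKM in acs2-ts, against 5.58 and 5 RPKM in its wild type, a log2 change of -1.89 ± 0.136 (adjusted p = 0.00013). ATG5 changed by -1.32 (adjusted p = 0.000211), ATG12 by -1.42 (adjusted p = 0.000227) and ATG3 by -1.42 (adjusted p = 0.000243). ATG8 fell least of the 9, with 23.7 and 19.3 RPKM in acs2-ts, against 46.8 and 32.9 RPKM in its wild type, a log2 change of -0.85 ± 0.204 (adjusted p = 0.0092).

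The 5 other genes of Atg9 and membrane supply fell as deposited, where 78.1% of all genes were called lower. ATG27 had 22.7 and 21.7 RPKM in acs2-ts, against 76.7 and 64.1 RPKM in its wild type, a log2 change of -1.62 ± 0.132 (adjusted p = 0.000151), and ATG23, which also helps Atg9 to traffic, changed by -1.51 (adjusted p = 0.000384). Both lipid kinase genes fell, among them ATG38 by -1.33 (adjusted p = 0.000347). All 5 Atg1 complex genes fell as deposited, with ATG31 the smallest fall of the 35, at -0.52 ± 0.14 (adjusted p = 0.014). With median-of-ratios scaling all 5 had a positive change, and 3 were called higher and 0 lower. ATG31 had 22.3 and 19.9 RPKM in acs2-ts, against 33.4 and 28.3 RPKM in its wild type.

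All 10 genes of selective autophagy fell as deposited, where 78.1% of all genes were called lower. Of the 10, 8 had a positive change after median-of-ratios scaling, with 2 called higher and 0 lower. ATG11 had 4.25 and 4.20 RPKM in acs2-ts, against 15.5 and 13.6 RPKM in its wild type, a log2 change of -1.57 ± 0.146 (adjusted p = 0.000208). ATG39 changed by -1.21 (adjusted p = 0.000329). ATG20, a sorting nexin, fell least of the 10, by 0.68 on the log2 scale.

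**Figure D4:**
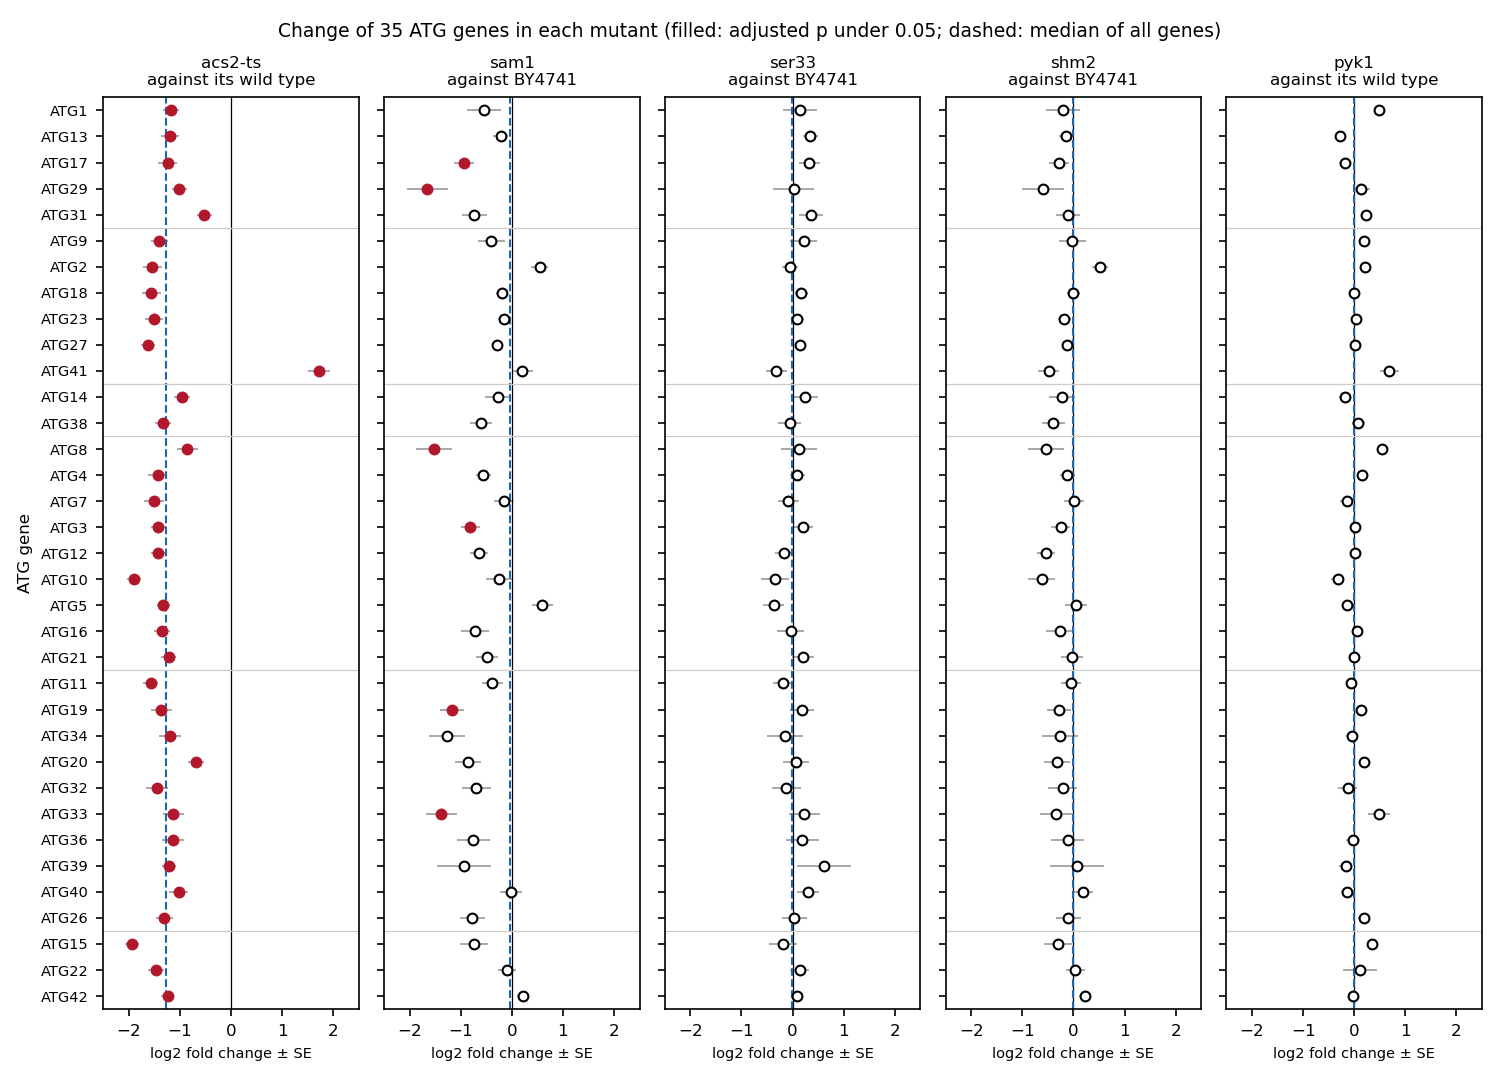
Log2 fold change (with standard error) of 35 ATG genes, grouped by step, in 5 mutants against their wild types, filled red where the adjusted p was under 0.05 and with the median of all genes as a dashed line. In acs2-ts all 35 points are filled and centre on the dashed line at -1.28, on the deposited scale, and in sam1 6 are filled, all below 0.

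The direction in acs2-ts depended on the scale. RPKM divide by the reads of the library, so a rise of abundant transcripts can lower the values of others. Whether this happened in acs2-ts was not tested. When libraries were scaled by the median of the ratios of their genes, the median of all genes was 0.03 and that of the members 0.09. On that scale 9 members were called higher and 2 lower, with 28.5% of all genes called higher and 21.9% lower. The 9 were ATG41 at 3.25, ATG31 at 0.95, ATG20 at 0.79, ATG8 at 0.63, ATG40 at 0.42, ATG29 at 0.39, ATG14 at 0.32, ATG42 at 0.27 and ATG1 at 0.24. The 2 lower members were ATG10 at -1.06 and ATG15 at -0.52. Thus ATG41 was called higher and ATG10 and ATG15 lower on both scales, and 8 members called lower as deposited were called higher. With values relative to ACT1 the split was 1 higher and 34 lower, beside 6.54% of all genes higher and 76.9% lower. ACT1 had 952.9 to 1180 RPKM in the acs2-ts libraries and 936.2 to 1402 RPKM in those of its wild type. The ACT1 scale was thus close to the deposited one, with a median of all genes of -1.17.

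**Figure D5:**
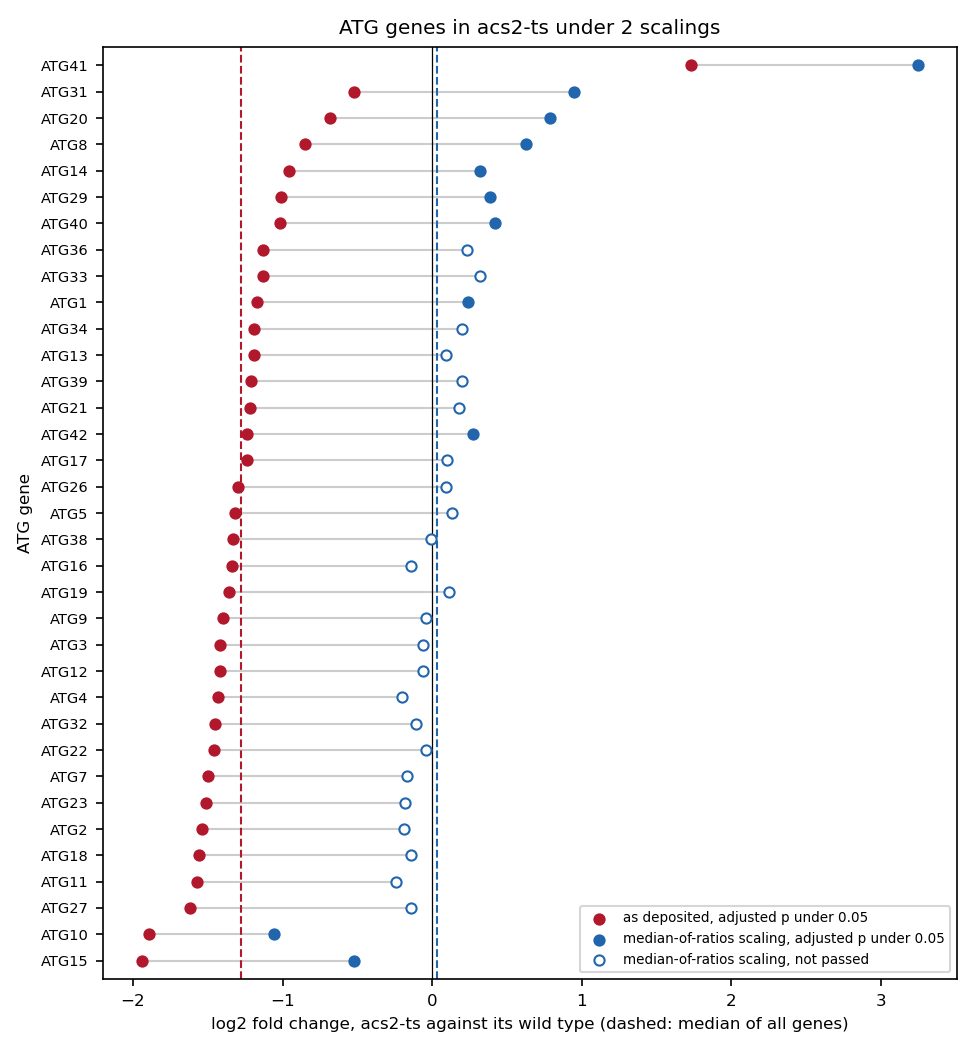
Log2 fold change of each ATG gene in acs2-ts against its wild type as deposited (red) and after median-of-ratios scaling (blue), filled where the adjusted p was under 0.05, with dashed lines at the medians of all genes. The members straddle the dashed line on both scales, and ATG41, at 1.73 and 3.25, stands to the right of all others.

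Of the 44 other pathway genes 39 fell and 4 rose in acs2-ts as deposited, or 88.6% and 9.09%. The shares of all genes were 78.1% and 5.70%, so lower calls were the rule here too. After median-of-ratios scaling 8 were lower and 16 higher, where 21.9% of all genes were lower and 28.5% higher. The 4 that rose were called higher on both scales. GCN4, the activator of the amino acid starvation response, averaged 1066 ± 9.45 RPKM in acs2-ts and 493.1 ± 48.0 RPKM in its wild type, a log2 change of 1.11. PRB1, vacuolar proteinase B, averaged 357.8 ± 8.19 RPKM in acs2-ts and 184.6 ± 33.3 RPKM in its wild type, a log2 change of 0.96. GAT1 changed by 0.69 and PEP4, vacuolar proteinase A, by 0.35. All 13 partners and all 13 nutrient kinases and their subunits fell as deposited, with medians of -1.58 and -1.50, beside -1.28 for all genes.

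The 3 wild types differed in members too. In the wild type of acs2-ts, 20 members were lower and 3 higher than in BY4741, while 26.7% of all genes were lower and 22.6% higher. The median member differed by -0.62, beside -0.07 for all genes. ATG33 had 33.9 and 25.4 RPKM in the wild type of acs2-ts, against 146.7 and 119.6 RPKM in BY4741 (log2 difference -2.14 ± 0.179 SE, adjusted p = 0.00143). ATG29 differed by -1.79 (adjusted p = 0.0038), ATG19 by -1.55 (adjusted p = 0.00205), ATG26, a sterol glucosyltransferase, by -1.52 (adjusted p = 0.00224) and ATG8 by -1.40 (adjusted p = 0.00995). ATG16, which binds the Atg12 and Atg5 conjugate, differed by -1.25 (adjusted p = 0.00187) and ATG15 by -1.23 (adjusted p = 0.00363). The 3 that were higher were ATG41 at 1.23 (adjusted p = 0.0135), ATG5 at 0.97 (adjusted p = 0.00317) and ATG10 at 0.61 (adjusted p = 0.0185). All 6 cargo and vacuolar protease genes were lower, with a median of -1.60. Without the second replicate of this wild type, 10 members were lower and 1 higher, beside 829 genes lower and 1000 higher, and relative to ACT1 4 were lower and 1 higher, beside 4.36% of all genes lower and 16.6% higher.

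In the wild type of pyk1, 13 members were lower and 5 higher than in BY4741, while 14.9% of all genes were lower and 39.8% higher. The median member differed by -0.31, beside 0.28 for all genes. ATG2 had 36.1 and 34.7 RPKM in the wild type of pyk1, against 17.5 and 14.4 RPKM in BY4741 (log2 difference 1.11 ± 0.141 SE, adjusted p = 0.00221). ATG5 (1.06, adjusted p = 0.00154), ATG10 (0.93, adjusted p = 0.0038), ATG23 (0.79, adjusted p = 0.00889) and ATG11 (0.58, adjusted p = 0.0174) were also higher. ATG29 had 19.5 and 15.1 RPKM in the wild type of pyk1, against 68.9 and 44.7 RPKM in BY4741 (-1.64, adjusted p = 0.0032). ATG33 (-1.39, adjusted p = 0.00229), ATG8 (-1.21, adjusted p = 0.0132), ATG19 (-1.04, adjusted p = 0.00341) and ATG20 (-1.04, adjusted p = 0.00452) were lower. Of the 6 cargo and vacuolar protease genes 5 were lower. After median-of-ratios scaling 21 members were lower and 4 higher, with 27.9% of all genes lower and 28.6% higher, and relative to ACT1 5 were higher and none lower, beside 44.3% of all genes higher and 3.38% lower. Without replicate 1 of the wild type of pyk1 the median member differed by -0.27, beside 0.27 for all genes. Without its replicate 3 the median member differed by -0.23, beside 0.29 for all genes. The strain and the library preparation of each wild type cannot be told apart, and these comparisons share the BY4741 replicates with that of sam1.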

How the data were processed

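Per the labels, total RNA of 28 libraries was depleted of ribosomal RNA and sequenced as stranded Illumina libraries. The submitters' processing notes name CASAVA 1.8.2, TopHat2 2.0.13, edgeR and the build sacCer3; how reads were counted is not given in the sources used here. The authors deposited 1 table of RPKM for 7125 genes, 13 of them at 0 in all libraries, and 32 of its columns were empty. RPKM are scaled to the reads of a library, so a change in abundant transcripts can move the values of others.

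RPKM times gene length gave whole reads within 0.1 read for 99.5% to 100% of low values, from which depth was taken (4310000 to 36510000 reads). Libraries of 1 replicate were averaged as log2(RPKM + 1), with no filter on low values. limma 3.58.1 in R 4.3.3 (lmFit, eBayes with trend) was used with Benjamini-Hochberg adjustment over all genes: BY4741, sam1, ser33 and shm2 in 1 model, the 3 wild types in 1 model, and the acs2-ts and pyk1 pairs in 1 model each. The fit was tested on simulated data. Genes matched RefSeq R64 by systematic name for 6048 of 7125. Copies were sought with BLAST+ 2.17.0 (at least 95% identity over 80% of the gene).

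The members and lists were chosen with earlier results of these data known. In each comparison the members with an adjusted p under 0.05 were named, at most 12 in full, and, where fewer than 5 passed, the 5 largest changes whose replicates did not overlap. ATG1, ATG8, ATG9, ATG14, ATG11 and ATG19 were given in every strain. In the sam1 paragraphs ATG31, ATG13, ATG5, ATG34, ATG40, ATG2, ATG15 and ATG42, which did not pass, were chosen after their values were seen, as were the members named between replicates. Alternatives were a pseudocount of 0.1, the first library only, a minimum mean of 1 RPKM, other sets of strains in the model, median-of-ratios scaling, values relative to ACT1, the replicate block and each replicate left out. Tables came from pandas 2.3.3 and numpy 2.4.6, and plots from matplotlib 3.10.9, in Python 3.11.15. Only the promoter windows of ATG8 and ATG29 are printed, as examples, and the others are not reported here.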

Additional observations from a re-analysis of the deposited data

How the results depend on the processing

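Each count of members past the threshold was recomputed under every alternative. In ser33, shm2 and pyk1 no alternative gave a call. In acs2-ts 35 members passed under the main settings, beside 406 of 7125 genes higher and 5565 lower. After median-of-ratios scaling 11 members passed, beside 2032 genes higher and 1563 lower. In sam1, where 6 passed beside 570 genes higher and 591 lower, the counts of all genes moved with those of members. The first library of each replicate gave 1 member, beside 143 genes higher and 187 lower. A mean of at least 1 RPKM gave 12, beside 865 of 6219 genes higher and 757 lower. All 8 strains in 1 model gave 19, beside 1431 genes higher and 1414 lower. Values relative to ACT1 gave 0 members, beside 1 gene higher and 1 lower. With only the 2 strains compared, and with the replicate block, 0 members and 0 of all genes passed. With 1 replicate left out the median member of sam1 ranged from -0.75 to -0.35. Relative to ACT1 the wild type of acs2-ts differed from BY4741 in 5 members, beside 16.6% of all genes higher and 4.36% lower. The wild type of pyk1 differed in 5, beside 44.3% of all genes higher and 3.38% lower. These comparisons with BY4741 carry the spread of ACT1 between its 2 replicates. With 1 replicate left out the acs2-ts count ranged from 33 to 35, and these from 11 to 27 and from 10 to 18.

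BY4741 and ser33 share replicate numbers, and their deviations correlated at -0.17. Those of acs2-ts and its wild type, by the numbers of the descriptions, correlated at 0.12. With 2 numbers each, and no label that ties a number to a shared batch, the samples were taken to share only a number. A block with the 2 BY4741 numbers exchanged, chosen after seeing the data, also gave 0 members in sam1. For acs2-ts the block took the numbers of the descriptions, which name the second wild-type replicate 3. With it 35 members passed, beside 426 of all genes higher and 5584 lower. No paired analysis was possible for pyk1, because it shares 1 replicate number with its wild type.

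After median-of-ratios scaling these acs2-ts members, lower as deposited, had a positive log2 change: ATG1 0.24, ATG5 0.13, ATG8 0.63, ATG13 0.09, ATG14 0.32, ATG17 0.10, ATG19 0.11, ATG20 0.79, ATG21 0.18, ATG26 0.09, ATG29 0.39, ATG31 0.95, ATG33 0.32, ATG34 0.20, ATG36 0.23, ATG39 0.20, ATG40 0.42 and ATG42 0.27. Over all named members and alternatives, 992 values kept their direction and side of the threshold, 189 lost the threshold and 18 turned direction. The cause of these changes was not tested. The 992 include members of ser33, shm2 and pyk1 that passed in no setting. All 6 sam1 calls were lost with the replicate block, with only the 2 strains compared and relative to ACT1. The total thus does not measure how stable the sam1 calls were. ATG10, at 3 to 65 reads, is the member that depth limits most.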
